A study of Mus musculus with 19 samples.

Results

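The genes described here are the aminoacyl-tRNA synthetases and the genes of amino acid stress, in ESC (naive embryonic stem cells of the mouse) and EpiLC (epiblast-like cells made from them). They were chosen by symbol: every synthetase of the cytosol or the mitochondrion, and a named set of amino acid enzymes, stress transcription factors and stress effectors. On the Illumina bead array 82 of 25697 probes carried such a symbol, for 51 genes. A gene was tested where a probe stood above its array's background in 3 or more of the 19 arrays, at a detection p-value below 0.01, which held for 44 of the 51, among 9422 genes tested in all. Hars, Hars2, Lars2, Nars2, Psph, Wars2 and Yars2 were on the array but too dim to test, and Dars, Cars2, Tars2 and Pycr1 were not analysed here.

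Aminoacyl-tRNA synthetases load each tRNA with its amino acid, and the cytosol and the mitochondrion use largely separate enzymes. When an amino acid runs short, uncharged tRNA activates the kinase GCN2, which phosphorylates eIF2 and slows translation in general while the transcription factor ATF4 is translated more. ATF4, with partners of the C/EBP family, is known to raise transcription of many cytosolic synthetases, of asparagine and serine synthesis enzymes and of amino acid transporters, and under lasting stress of Ddit3 (CHOP), Trib3 and Chac1. Mouse ESC are known for feeding threonine, glycine and serine into one-carbon metabolism.

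The study asked what the loss of Foxd3, a forkhead transcription factor, changes in each state. Its 4 groups of 3 samples were made by giving each state either ethanol or tamoxifen, where tamoxifen (1 µM for 36 h) is labelled as inducing the knockout and ethanol samples stand for the wild type. All cells shared a Knockout DMEM medium that contained L-glutamine, Non-essential amino acids, FBS and Pen/Strep, to which Lif and the 2i inhibitors (GSKi, MEKi) were added for ESC alone. The labels name neither the allele nor the Cre that acts on it, and no group carries tamoxifen without the deletable gene, so the drug's own effect and the loss of Foxd3 cannot be told apart. The medium of ESC and EpiLC differed, so medium and cell state cannot be told apart either.

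Between 10330 and 11481 probes were detected per array. In ESC the tamoxifen arrays were brighter than the ethanol arrays within each hybridization round, with medians of 166 to 176 against 149 to 154 in round 1. The single Foxd3 probe was detected on 0 of 19 arrays, so the deletion rests on the labels. The states matched their names: all 7 tested naive pluripotency genes were lower and all 5 tested formative epiblast genes were higher in EpiLC in ethanol than in ESC in ethanol. Primitive endoderm genes moved with tamoxifen in ESC: both tested markers of 7 rose, Gata6 by 1.93 (log2) and Dab2 by 1.39, with summed levels of 555 to 728 in ethanol and 1596 to 2020 in tamoxifen, while Gata4 and Foxa2 were detected on no array. Trophoblast genes moved with tamoxifen in EpiLC: 4 of 5 tested markers rose, with sums of 3313 to 4330 in ethanol and 6377 to 10103 in tamoxifen, and Elf5 was detected on no array. Naive pluripotency genes moved with them in EpiLC: 3 of 7 tested markers rose (5 with sample number as a block), with sums of 8504 to 10388 in ethanol and 11060 to 12155 in tamoxifen. The summed formative genes ran from 33204 to 34922 in EpiLC ethanol and from 28002 to 31671 in tamoxifen, with 1 of 5 called higher and 1 lower. Of all genes 4.74% rose and 2.17% fell with tamoxifen in EpiLC (11% rose with the block), and 5.58% rose in ESC. In bulk RNA, more cells of such a type and more of its RNA per cell cannot be told apart, and the part of these cells in the results below was not tested.

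Promoter sequence is shown first, searched for an element to which ATF4 binds. RefSeq (GRCm38.p6) gave a window of 300 bases, from 250 before to 50 after the annotated start, for 41 of the 51 genes and 36 of the 44 tested. The letters TGATGNAA, the core of the C/EBP-ATF response element to which ATF4 binds, were searched on both strands. They stood in 10 of 45 windows of these genes (22.2%), each of a different gene, and in 3.97% of 32851 windows of all genes. The set was chosen by name and includes known ATF4 target genes, so these shares are a description and not a test. The cyclic AMP response element TGACGTCA, also searched on both strands, stood in 0 of 45 windows and in 1.79% of all. For the genes listed next, the 28 bases around the match are printed on the strand that reads TGATGNAA, with the match in capitals.
Asns (chr6:7693215-7693242, minus strand): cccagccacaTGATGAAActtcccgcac
Gars (chr6:55037961-55037988, minus strand): gcccggtgcaTGATGAAAtagcgcagcc
Iars (chr13:49682127-49682154, minus strand): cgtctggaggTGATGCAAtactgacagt
Tars (chr15:11399656-11399683, plus strand): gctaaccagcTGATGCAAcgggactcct
Yars (chr4:129189896-129189923, plus strand): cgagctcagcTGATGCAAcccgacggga
Atf3 (chr1:191183426-191183453, plus strand): gcggacttggTGATGCAAgtgcgagaag
Chac1 (chr2:119351039-119351066, minus strand): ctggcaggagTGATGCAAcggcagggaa
Trib3 (chr2:152344029-152344056, plus strand): cccgcccggcTGATGTAAacctgagcta
Vldlr (chr19:27216810-27216837, minus strand): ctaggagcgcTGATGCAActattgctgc

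The 10 genes are 5 cytosolic synthetases (Aars, Gars, Iars, Tars, Yars), asparagine synthetase (Asns), the transcription factor Atf3, the stress effectors Chac1 and Trib3, and the lipoprotein receptor Vldlr. No window with a match belonged to a mitochondrial synthetase. The windows of Asns and Atf3 are printed whole on the gene's strand, because these genes moved in opposite directions between the states. The capitals mark the match, which in Atf3 reads as the reverse complement, TTGCATCA. A match describes these letters in this window and is not evidence of binding.
Asns (chr6:7693160-7693459, minus strand): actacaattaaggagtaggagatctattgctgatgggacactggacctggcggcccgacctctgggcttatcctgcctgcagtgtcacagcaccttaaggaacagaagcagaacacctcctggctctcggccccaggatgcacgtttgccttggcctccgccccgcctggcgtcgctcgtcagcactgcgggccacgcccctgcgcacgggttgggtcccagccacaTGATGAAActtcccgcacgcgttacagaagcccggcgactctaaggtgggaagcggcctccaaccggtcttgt
Atf3 (chr1:191183284-191183583, minus strand): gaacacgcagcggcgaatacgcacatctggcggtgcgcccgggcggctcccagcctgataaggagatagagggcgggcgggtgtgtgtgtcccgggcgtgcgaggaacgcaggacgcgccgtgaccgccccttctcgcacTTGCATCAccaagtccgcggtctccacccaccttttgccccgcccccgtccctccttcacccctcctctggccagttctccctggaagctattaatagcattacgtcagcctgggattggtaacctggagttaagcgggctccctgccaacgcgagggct

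The first comparison, tamoxifen against ethanol in ESC, asks what the labelled loss of Foxd3 changes in naive cells. The proline, serine and one-carbon enzymes Aldh18a1, Phgdh and Shmt2 fell, while the stress genes Ddit4 and Atf3 rose. Of the 44 tested genes 6 were called at an adjusted p under 0.05 (13.6%), where 9.09% of all 9422 genes were called. The 4 that fell were Aldh18a1, Shmt2, Phgdh and Sars (3.5% of all genes fell), and the 2 that rose were Ddit4 and Atf3 (5.58% of all genes rose). The sample values of ethanol and tamoxifen did not overlap for 16 of the 44 genes, a share close to the 32.5% of all genes. With the deposited normalized table the split was 1 higher and 8 lower, and with arrays scaled to equal medians, where Phgdh and Sars were not called, 2 and 2. Changes are log2 differences between group means of 3 samples, with the standard error (SE) and adjusted p of the limma fit.

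Of the 7 tested amino acid and one-carbon enzymes 3 fell and 0 rose in ESC, with a list median of -0.43 against -0.01 over all genes. Aldh18a1, the mitochondrial enzyme that makes the precursor of proline, had normalized log2 intensities of 9.66, 9.46 and 9.33 in ethanol and 8.62, 8.69 and 8.40 in tamoxifen. All 3 tamoxifen samples lay below all 3 ethanol samples. The change was -0.91 (SE 0.11, adjusted p = 0.000576), which is 1.89-fold lower, and it was -0.80 on round 1 arrays alone and -0.94 on round 2 arrays alone. Shmt2, the mitochondrial enzyme that moves a carbon from serine to folate, gave 9.09, 8.98 and 9.12 in ethanol and 8.54, 8.36 and 8.39 in tamoxifen. The groups did not overlap, and Shmt2 fell by 0.63 (SE 0.14, adjusted p = 0.0148). A second Shmt2 probe fell by 0.87. Phgdh, the enzyme that commits glucose carbon to serine, gave 9.80, 10.28 and 9.90 in ethanol against 9.37, 9.73 and 9.30 in tamoxifen. Its highest tamoxifen sample lay only just below its lowest ethanol sample, and it fell by 0.53 (SE 0.14, adjusted p = 0.0402). Within rounds the 2 changes were close to these, at -0.63 and -0.63 for Shmt2 (adjusted p = 0.0884 and 0.0142) and -0.56 and -0.58 for Phgdh (0.0559 and 0.0918).

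The other enzymes did not pass this test. Mthfd2, the mitochondrial enzyme that follows Shmt2 in folate metabolism, stood at -0.43 (adjusted p = 0.0529). Asns, which makes asparagine and is a standard readout of amino acid stress, gave 13.78, 13.89 and 13.93 in ethanol and 13.89, 13.91 and 13.88 in tamoxifen. The groups overlapped, with a change of 0.02 (SE 0.15, adjusted p = 0.939). Its other 2 probes gave 0.05 and 0.07. Psat1, the serine pathway enzyme after Phgdh, stood at -0.01 (SE 0.22), and Cth, which makes cysteine, at 0.21 (SE 0.20).

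**Figure D1:**
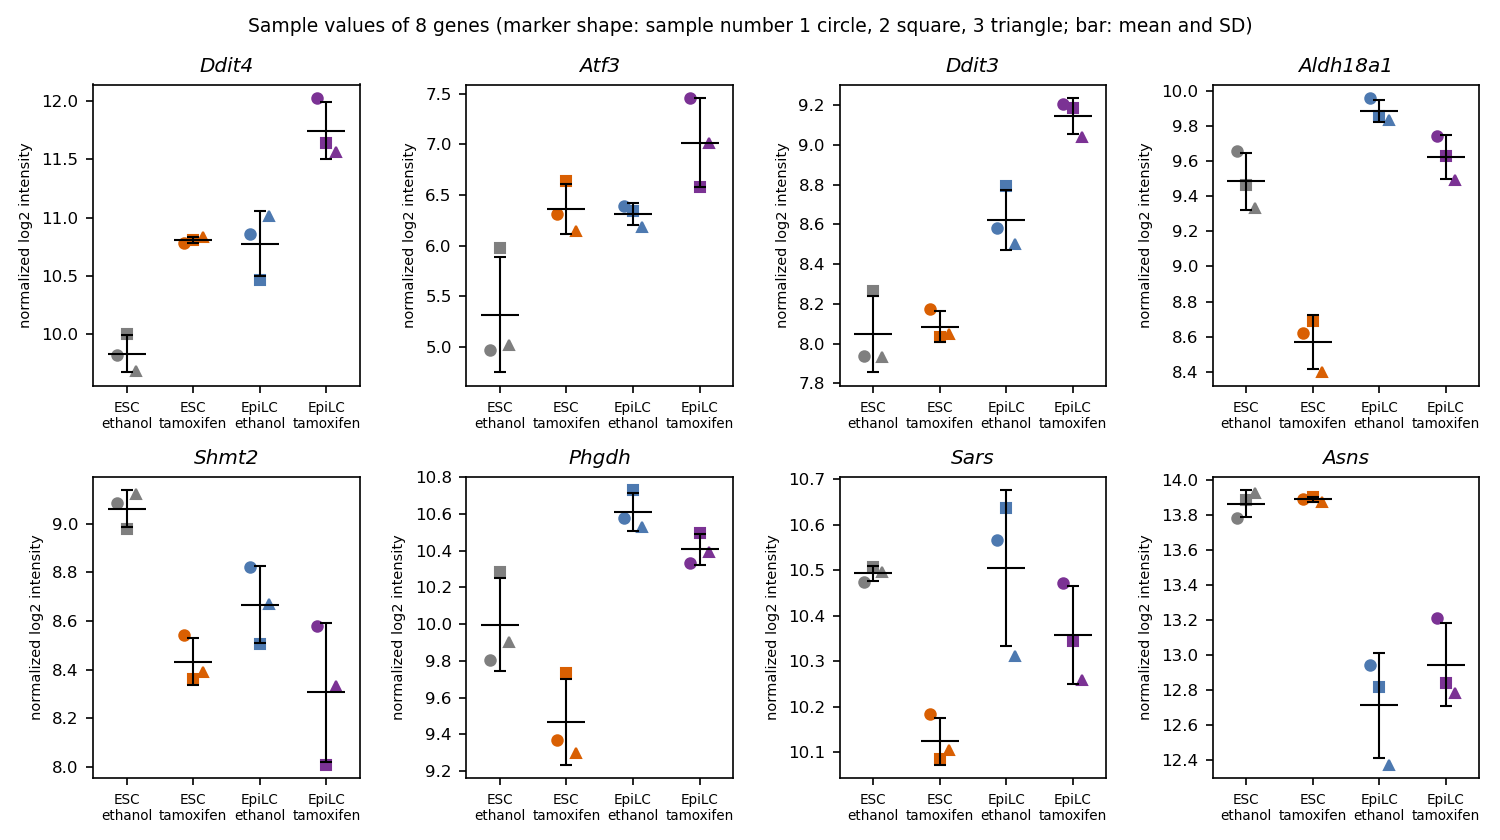
Normalized log2 intensity (y axis) of Ddit4, Atf3, Ddit3, Aldh18a1, Shmt2, Phgdh, Sars and Asns in the 3 samples of each of the 4 groups. Marker shape gives the sample number and the bar the mean and SD. Aldh18a1 runs from 8.40 to 8.69 in ESC in tamoxifen, below every other group, and Asns is lower in EpiLC than in ESC, with changes of 0.02 and 0.23 with tamoxifen.

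Of the 18 tested cytosolic synthetases 1 fell and 0 rose in ESC. Sars, the seryl-tRNA synthetase, gave 10.47, 10.51 and 10.50 in ethanol and 10.18, 10.09 and 10.10 in tamoxifen. The groups did not overlap, and Sars fell by 0.37 (SE 0.10, adjusted p = 0.0357), with -0.37 in each round. A second Sars probe stood at -0.37 as well and was not called (adjusted p = 0.278). The changes of the 18 were small, from -0.48 (Cars) to 0.23 (Eprs), and 15 were below 0, with a median of -0.11. Of all genes 51.5% were below 0. With equal medians 12 of the 18 were below 0 and the list median was -0.04, against 0.09 over all genes. Mars1 (methionyl, -0.37, adjusted p = 0.064) and Vars (valyl, -0.31, adjusted p = 0.0658) missed the threshold, although the second probe of Mars1 and both other probes of Vars were called lower. For Wars the probe used stood at -0.11, and its other probes at -0.34 (called lower, adjusted p = 0.0214), -0.24 and -0.12 (neither called). The 2 probes of Cars, the cysteinyl enzyme, disagreed: the probe used stood at -0.48 (adjusted p = 0.214), and the other, detected on 0 of 5 ethanol and 6 of 6 tamoxifen arrays, was called higher, so no direction is given for Cars. None of the 9 tested mitochondrial synthetases was called in the fit without sample number as a block. With that block 3 fell, where 9.59% of all genes did. The median of the 9 was -0.17 (-0.04 with equal medians), and the lowest was Sars2 at -0.43 (adjusted p = 0.151 without the block). At an unadjusted p under 0.05 there were 13 of the 44 genes and 2215 of all genes.

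Among the 5 stress transcription factors 1 rose in ESC. Atf3, an early stress factor that is also a target of ATF4, gave 4.96, 5.98 and 5.01 in ethanol and 6.31, 6.64 and 6.14 in tamoxifen. The groups did not overlap, with ethanol sample 2 nearest to tamoxifen. Atf3 rose by 1.05 (SE 0.27, adjusted p = 0.0351), and it stood at 1.01 and 0.93 in the rounds taken alone (adjusted p = 0.111 and 0.0972). It was dim, detected on 1 of 5 ESC ethanol arrays and on 6 of 6 ESC tamoxifen arrays, so the size of its change depends on the background correction. With the deposited normalized table it stood at 0.31 and was not called. The master factor Atf4 gave 10.30, 10.61 and 10.26 in ethanol and 10.12, 10.07 and 9.97 in tamoxifen, a change of -0.34 (SE 0.11, adjusted p = 0.0836) with no overlap. Atf5, a stress factor translated in the same way as ATF4, stood at -0.29 (SE 0.14, adjusted p = 0.249). Cebpb, which pairs with ATF4 on DNA, stood at 0.33 (SE 0.15, adjusted p = 0.219), and Ddit3, the death-promoting factor CHOP, at 0.04 (SE 0.11, adjusted p = 0.871). ATF4 is regulated mainly at translation, which an mRNA array does not measure.

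In the list of 5 tested genes that joins the stress effectors with the receptor Vldlr, 1 rose in ESC. Ddit4 (REDD1), an inhibitor of the growth kinase mTORC1, gave 9.82, 9.999 and 9.68 in ethanol and 10.78, 10.81 and 10.83 in tamoxifen. The groups were well apart, and Ddit4 rose by 0.97 (SE 0.15, adjusted p = 0.00257), which is 1.97-fold, with 0.81 and 1.10 within the rounds. Chac1, which degrades glutathione, gave 9.32, 9.66 and 8.74 in ethanol against 8.62, 8.78 and 7.92 in tamoxifen. Its groups overlapped, although each tamoxifen sample lay below the ethanol sample of the same number, and the change was -0.80 (SE 0.40, adjusted p = 0.25). Trib3, a pseudokinase that rises with ATF4 and CHOP, stood at -0.07 (SE 0.20, adjusted p = 0.863). Sesn2, a leucine sensor that restrains mTORC1, stood at 0.34 (adjusted p = 0.554), and Vldlr at -0.04.

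The sample numbers pair ethanol and tamoxifen samples, and a fit with the number as a block called 18 of the 44 genes in ESC, where it called 21.6% of all genes. Of these 4 rose and 14 fell (12 and 9.59% of all genes). The 6 genes above were among them. Chac1 fell by 0.80 (adjusted p = 0.00118), Mthfd2 by 0.43 (0.00701), Atf4 by 0.34 (0.029) and Atf5 by 0.29 (0.0263). The synthetases Mars1, Vars, Sars2, Iars2 and Pars2 fell too, by 0.25 to 0.43, as did the probe used for Cars, by 0.48, against its other probe. Cebpb (0.33, adjusted p = 0.0132) and Sesn2 (0.34, adjusted p = 0.0453) rose. In the fit without the block, leaving out single samples ended the calls of Atf3, Phgdh, Sars and Shmt2 (adjusted p = 0.0505 to 0.143), but not those of Ddit4 and Aldh18a1.

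The second comparison, tamoxifen against ethanol in EpiLC, asks the same of formative cells. In the fit without the block Ddit4 and Ddit3 rose there, and no synthetase or enzyme was called. Of the 44 genes 2 were called (4.55%), both higher, where 6.91% of all genes were called (4.74% higher and 2.17% lower). Groups did not overlap for 9 of the 44, against 24.7% of all genes. Ddit4 gave 10.86, 10.46 and 11.01 in ethanol and 12.03, 11.64 and 11.57 in tamoxifen. All tamoxifen samples were above all ethanol samples, and the rise was 0.97 (SE 0.15, adjusted p = 0.00417), or 1.96-fold. Ddit3 gave 8.58, 8.79 and 8.50 in ethanol and 9.21, 9.19 and 9.04 in tamoxifen. The groups did not overlap, and Ddit3 rose by 0.52 (SE 0.11, adjusted p = 0.0198), while its second probe stood at 0.18 and was not called. The EpiLC ethanol samples were hybridized in round 1 alone, where the changes were 0.98 for Ddit4 and 0.54 for Ddit3 (adjusted p = 0.0122 and 0.0466). Leaving out any single one of 4 EpiLC samples ended the call of Ddit3 (adjusted p = 0.0545 to 0.0655).

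In the fit without the block, the genes called in ESC were not called in EpiLC, Ddit4 apart. With the block Aldh18a1, Shmt2 and Atf3 were called in EpiLC too, in the same direction as in ESC. Aldh18a1 gave 9.96, 9.86 and 9.84 in EpiLC ethanol and 9.74, 9.63 and 9.49 in tamoxifen. The groups did not overlap, but the change was -0.26 (SE 0.11, adjusted p = 0.187). Shmt2 stood at -0.36 (adjusted p = 0.143), Phgdh at -0.20 (0.447), Sars at -0.15 (0.413) and Atf3 at 0.71 (SE 0.27, 0.15). Of the other stress genes, Atf4 stood at -0.11 (adjusted p = 0.635), Atf5 at -0.01 (0.976), Cebpb at 0.28 (0.319), Chac1 at -0.35 (0.677), Trib3 at 0.03 (0.953) and Asns at 0.23 (0.397). Of the 18 cytosolic synthetases 17 were below 0, with a median of -0.11, where 53.3% of all genes were below 0 and the median of all genes was -0.02. With equal medians all 18 were below 0, with a median of -0.21 against -0.09 over all genes.

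With sample number as a block, 13 of the 44 genes were called in EpiLC, against 19.9% of all genes (11% higher and 8.96% lower). The 5 that rose were Ddit4, Atf3 (0.71, adjusted p = 0.0312), Ddit3, Sesn2 (0.46, 0.0169) and Cebpb (0.28, 0.027). The 8 that fell were the enzymes Aldh18a1 (-0.26, adjusted p = 0.0423), Shmt2 (-0.36), Psat1 (-0.41) and Mthfd2 (-0.29), the effector Chac1 (-0.35), and the synthetases Yars, Tars and Nars. The asparaginyl enzyme Nars stood at -0.37 and the threonyl enzyme Tars at -0.49, although a second Tars probe stood at 0.13 in the fit without the block. Yars, the tyrosyl enzyme, was detected on 2 of 3 EpiLC ethanol and 0 of 5 EpiLC tamoxifen arrays. The lower bound of its fall was 1.04-fold, taken with an ethanol array that had no detected signal, so no size is given.

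**Figure D2:**
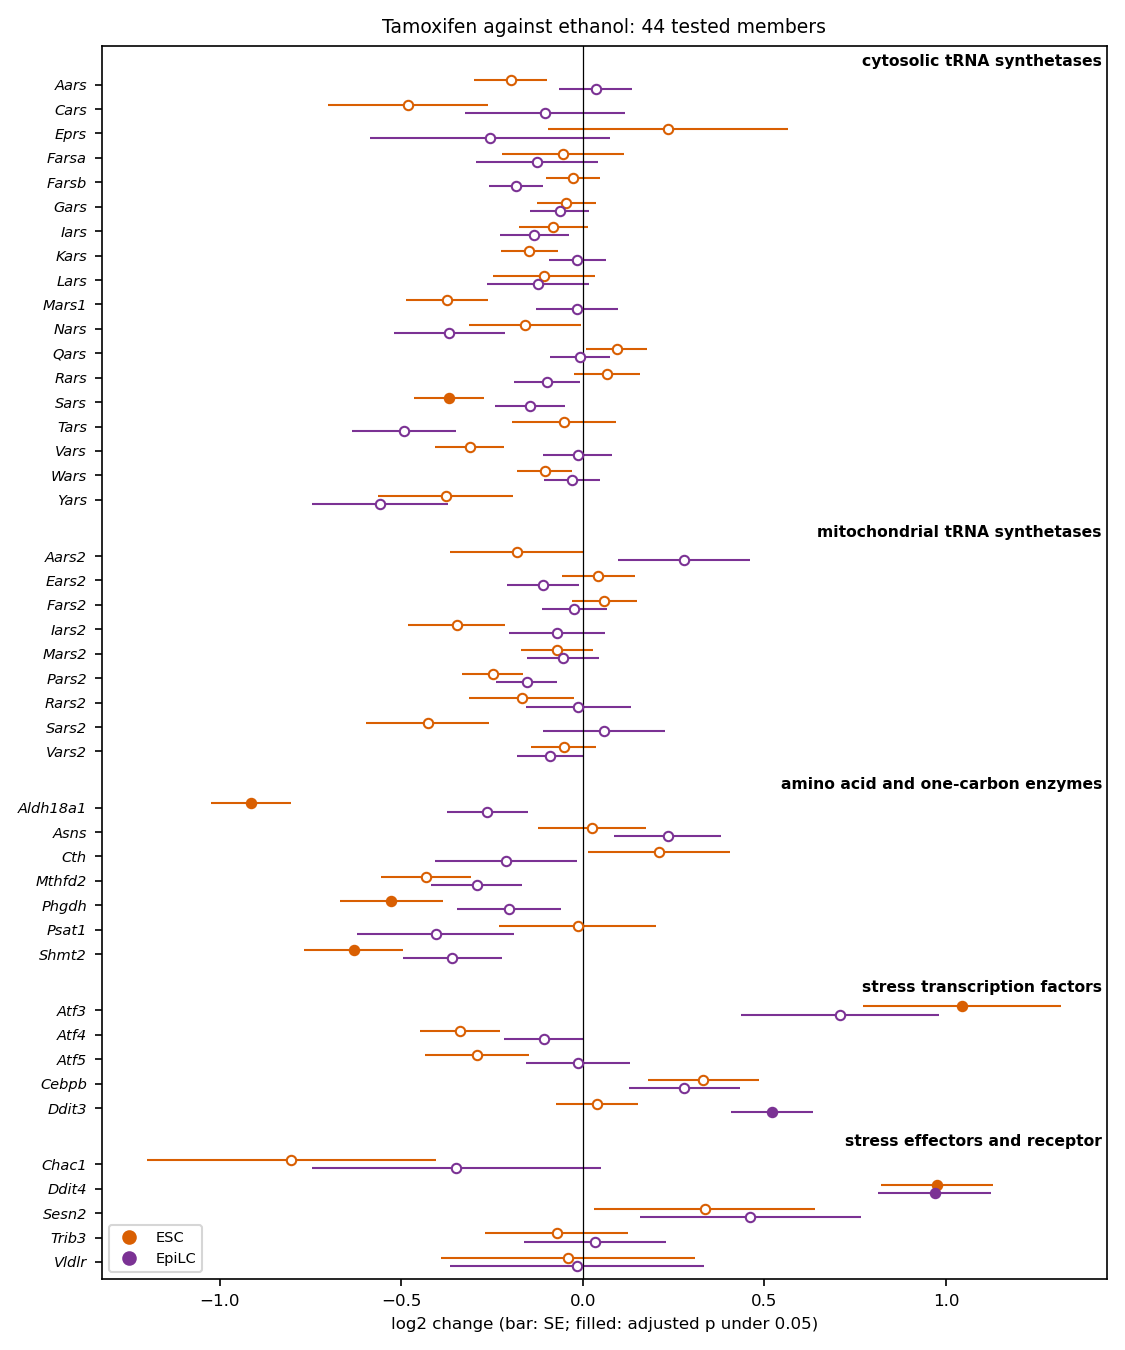
Log2 change with tamoxifen (x axis, bars SE) of the 44 tested genes in ESC (orange) and EpiLC (purple), grouped by role. Filled points passed an adjusted p under 0.05 in the fit without the block: 6 in ESC and 2 in EpiLC, with Ddit4 at 0.97 in both.

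Whether tamoxifen acted differently in the states was tested as the difference of the effects, EpiLC minus ESC. In the fit without the block 0 of the 44 genes were called, where 2.59% of all genes were (1.41% higher and 1.18% lower). In that fit 4 of the 44 had an unadjusted p under 0.05, as had 1593 of all 9422 genes. The difference for Ddit4 was -0.01 (SE 0.22, adjusted p = 0.992). That for Aldh18a1 was 0.65 (SE 0.16, adjusted p = 0.0561), a smaller drop in EpiLC, and for Ddit3 it was 0.48 (SE 0.16, adjusted p = 0.158). For Atf3 it was -0.34 (SE 0.39), for Atf4 0.23 (SE 0.16), for Atf5 0.28 (SE 0.20), for Cebpb -0.05 (SE 0.22), for Asns 0.21 (SE 0.21), for Chac1 0.45 (SE 0.56) and for Trib3 0.11 (SE 0.28). With the block 2 genes were called, against 12.2% of all genes (5.89% higher and 6.28% lower): Aldh18a1 (0.65, adjusted p = 0.0107) and Mars1 (0.36, adjusted p = 0.0482).

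The third comparison, EpiLC against ESC in ethanol, describes the states without the knockout. These genes differed between the states in either direction. Of the 44 genes 27 were called, 15 higher and 12 lower in EpiLC, a share of 61.4% where 56.3% of all genes were called (29.8% higher and 26.4% lower). Groups did not overlap for 26 of the 44, against 62.1% of all genes. The ESC ethanol samples here are those of the first comparison.

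Of the 5 stress transcription factors 4 were higher in EpiLC and Atf5 was lower. Cebpb gave 8.60, 8.55 and 8.12 in ESC and 10.14, 10.07 and 10.25 in EpiLC. The groups lay far apart, with a difference of 1.73 (SE 0.15, adjusted p = 1.84e-06), or 3.32-fold. Atf3 was higher by 0.99 (SE 0.27), Ddit3 by 0.58 (SE 0.11) and Atf4 by 0.31 (SE 0.11, adjusted p = 0.033), and Atf5 fell by 0.63 (SE 0.14). Atf3 was detected on 1 of 5 ESC ethanol arrays, and with the deposited normalized table its difference was 0.29. Among the effectors and the receptor, Ddit4 was higher by 0.95 (SE 0.15) and Vldlr, a receptor for triglyceride-rich lipoproteins, by 1.06 (SE 0.35, adjusted p = 0.0222). Vldlr was detected on 1 of 5 ESC ethanol arrays, its groups overlapped, and with the deposited normalized table its difference was 0.43. Chac1 stood at 0.96 (SE 0.40, adjusted p = 0.0594) and Trib3 at -0.31 (SE 0.20, adjusted p = 0.197). On round 1 arrays alone Atf4 (0.27, adjusted p = 0.139) and Vldlr (0.85, adjusted p = 0.144) were not called, and Trib3 was lower (-0.58, adjusted p = 0.0394).

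The enzymes split. Asns gave 13.78, 13.89 and 13.93 in ESC and 12.95, 12.82 and 12.37 in EpiLC, and fell by 1.15 (SE 0.15, adjusted p = 4.09e-05), which is 2.23-fold. Its 3 probes were all called lower, at -1.15, -1.44 and -1.88. Cth gave 9.33, 9.68 and 9.31 in ESC and 7.79, 7.94 and 7.40 in EpiLC, and fell by 1.73 (SE 0.20, adjusted p = 1.46e-05), or 3.32-fold. Both genes thus went the other way from Cebpb, Ddit3 and Atf4. Phgdh was higher in EpiLC by 0.61 (SE 0.14), as were Aldh18a1 and Mthfd2, and Shmt2 was lower. Psat1 was not called.

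Cytosolic and mitochondrial synthetases were counted apart, where 29.8% of all genes were higher and 26.4% lower. Of 18 cytosolic enzymes 6 were higher (Lars, Farsa, Iars, Rars, Wars, Farsb) and 3 were lower (Cars, Qars, Aars) in EpiLC, with a list median of 0.11 against 0.03 over all genes. These calls are those of the brightest probe: the other 3 probes of Wars stood between -0.19 and 0.03, and the second probes of Iars (0.23), Rars (0.17) and Farsb (0.18) were not called either. Of 9 tested mitochondrial enzymes, from 17 listed, 0 were higher and 5 were lower, with a median of -0.27. With equal medians 1 was higher and 4 were lower. The 5 called lower in the main scaling were Aars2, Pars2 (-0.62, SE 0.08, adjusted p = 6.2e-05), Sars2 (-0.59, SE 0.17), Mars2 and Fars2. The EpiLC ethanol arrays were of round 1 alone, and without the round term Sars2 was not called (adjusted p = 0.585). Pars2, the prolyl enzyme, gave 8.45, 8.26 and 8.37 in ESC and 7.78, 7.71 and 7.72 in EpiLC, with no overlap. Aars2, the alanyl enzyme, was lower (adjusted p = 0.00111) and was detected on 0 of 3 EpiLC ethanol arrays. With the main processing, before the fit on round, it was at least 1.54-fold lower. Other processing gave log2 differences from -1.11 to -0.30, so the size is not bounded across processing. The probe used for Cars stood at -0.996 (SE 0.22). Its other probe, detected on 0 of 5 ESC ethanol arrays, stood the other way at 0.24 and was not called (adjusted p = 0.103). For this reason no direction is given for Cars. The difference between the 2 kinds of synthetase was not tested.

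The fourth comparison, EpiLC against ESC in tamoxifen, used the 6 samples that the third did not. Of the 44 genes 25 were called, 16 higher and 9 lower, where 56.5% of all genes were (29.4% higher and 27.1% lower). With equal medians the split was 9 higher and 12 lower, and that scaling moved the median of all genes from 0.01 to -0.10. Groups did not overlap for 35 of the 44, against 63.7% of all genes. Cth (-2.15, SE 0.20) and Asns (-0.95, SE 0.15) were lower. Cebpb was higher by 1.68 (SE 0.15), Chac1 by 1.41 (SE 0.40), Vldlr by 1.09 (SE 0.35), Ddit3 by 1.06 (SE 0.11) and Ddit4 by 0.94 (SE 0.15). Aldh18a1 was higher by 1.05 (SE 0.11) and Phgdh by 0.94 (SE 0.14). Ethanol gave 0.40 for Aldh18a1 and 0.61 for Phgdh, and the differences between these are the tamoxifen differences above. Mthfd2 and Atf4 were each higher by 0.54. Atf3 stood at 0.65 (SE 0.27, adjusted p = 0.06), Atf5 at -0.35 (adjusted p = 0.0575, and 0.0396 with the block) and Trib3 at -0.21 (adjusted p = 0.395). Cars was lower by the probe used, detected on 4 of 6 ESC tamoxifen and 0 of 5 EpiLC tamoxifen arrays, with a lower bound of 1.06-fold. Its other probe, also detected on none of those EpiLC arrays, was called lower too. On round 2 arrays alone the probe used was not called (adjusted p = 0.0696). Of the mitochondrial synthetases 4 were lower (Ears2, Fars2, Mars2, Pars2) and 2 higher (Iars2, Rars2), with a median of -0.31.

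**Figure D3:**
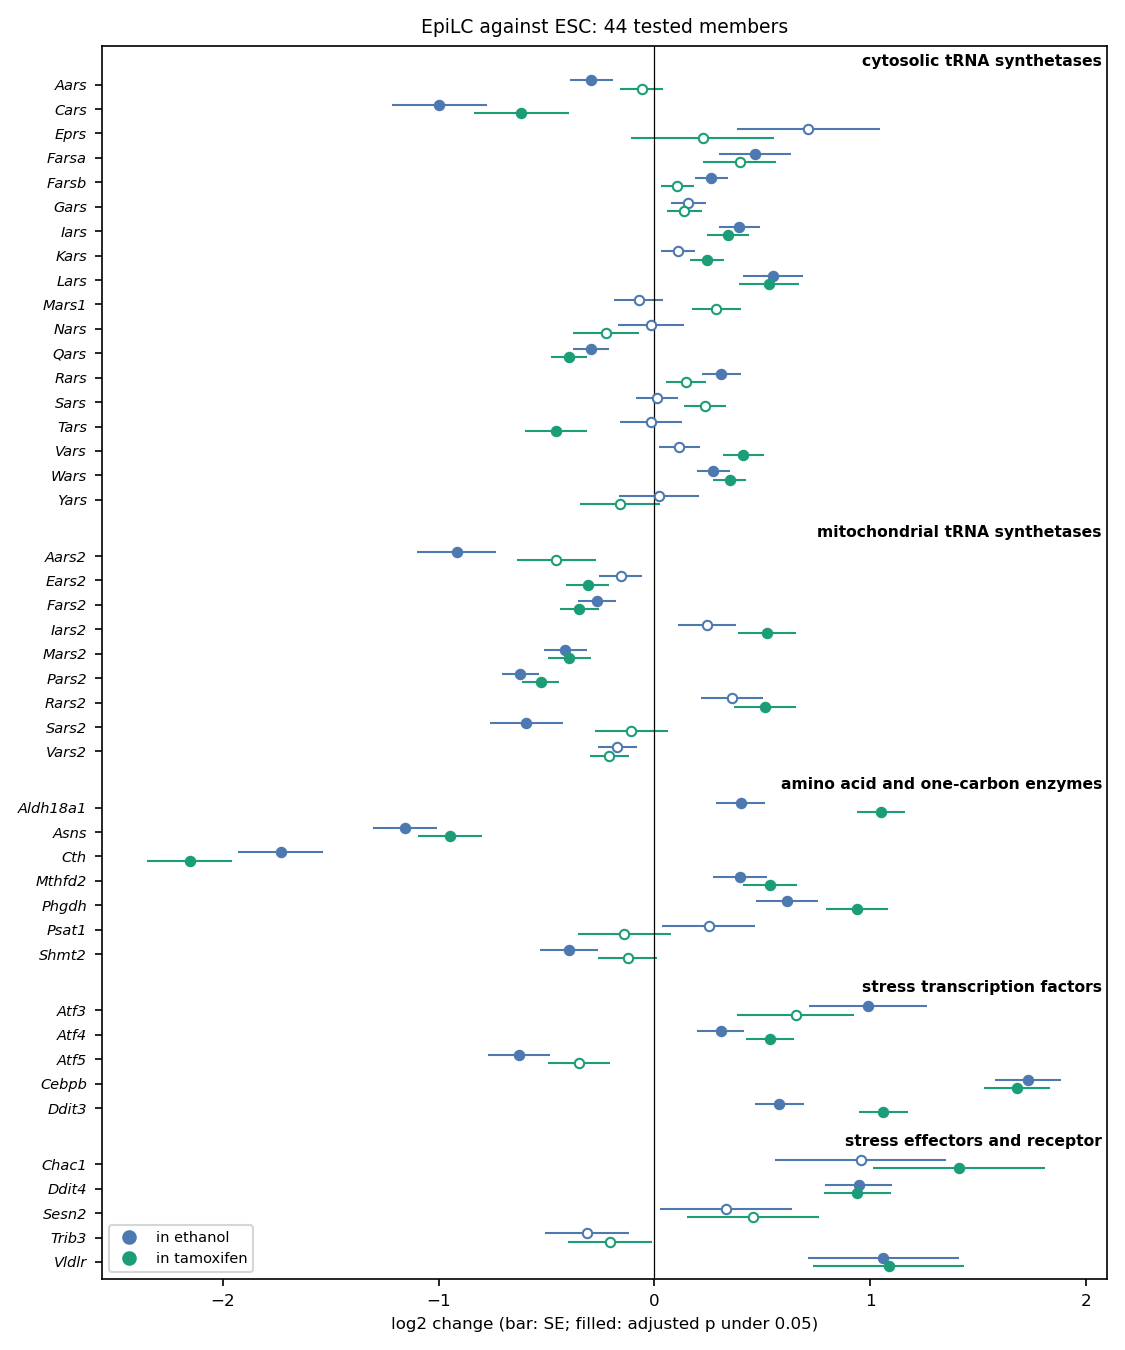
Log2 difference EpiLC minus ESC (x axis, bars SE) of the 44 tested genes in ethanol (blue) and tamoxifen (green), grouped by role. Filled points passed an adjusted p under 0.05: 27 in ethanol and 25 in tamoxifen. Cth lies at -1.73 and -2.15 and Cebpb at 1.73 and 1.68.

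Genes with the promoter letters moved in either direction. In ESC with tamoxifen the 10 genes with TGATGNAA had a median change of -0.06 (from -0.80 to 1.05) and the 26 tested genes with a window without it -0.11 (from -0.91 to 0.97). Between the states in ethanol the medians were 0.09 and 0.25. Among genes printed above, Asns was lower in EpiLC and Atf3 and Vldlr were higher, and each holds the letters.

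Other genes of the pathway were followed by list. Of 5 tested amino acid transporters 2 fell in ESC with tamoxifen: Slc7a3, a carrier of arginine and lysine, by 0.91 (SE 0.12, adjusted p = 0.0009), and the glycine carrier Slc6a9 by 0.80 (SE 0.17, adjusted p = 0.0121). Slc7a3 gave 12.90, 12.76 and 12.61 in ESC ethanol and 11.87, 12.05 and 11.63 in tamoxifen, without overlap. It fell in EpiLC as well, by 0.73 (SE 0.12, adjusted p = 0.00522). All 5 transporters were higher in EpiLC than in ESC in ethanol, among them Slc1a4 (1.27), Slc6a9 (1.21) and Slc38a2 (0.91). Of 7 further ATF4 target genes 2 fell in ESC, the stress regulator Nupr1 by 1.20 (SE 0.28) and the secreted factor Stc2 by 0.80 (SE 0.19). Of all genes 3.5% fell in ESC. In EpiLC Sqstm1 rose by 0.45 and Gpt2 fell by 0.58, where 4.74% of all genes rose and 2.17% fell. With sample number as a block 4 of the 7 fell and 1 rose in ESC, and 2 fell and 1 rose in EpiLC. In that fit 3 transporters fell in ESC and 2 in EpiLC. It called 12% of all genes higher and 9.59% lower in ESC, and 11% and 8.96% in EpiLC. Between the states 3 of the 7 ATF4 target genes were higher and 3 lower in EpiLC in ethanol, led by Nupr1 (-2.61), Stc2 (1.34) and the transcription factor Jdp2 (-1.13). Of all genes 29.8% were higher and 26.4% lower in that comparison.

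In the fit without the block, tamoxifen gave no call in either state among 6 tested genes of the eIF2 kinases, eIF2 phosphatase subunits and the GCN2 inhibitor Impact. The same held for the 3 scaffold genes of the synthetase complex. In the block fit 1 of the 6 rose in EpiLC, where 11% of all genes did. The endoplasmic reticulum list joins chaperones with other genes, among them the transcription factor Xbp1. Of its 9 tested genes 0 were called in ESC. In EpiLC Xbp1 rose by 0.34, where 4.74% of all genes rose, and no other gene of the list was called. Of 11 other amino acid and one-carbon enzymes 1 was called in each state (9.09%). Of all genes 9.09% were called in ESC and 6.91% in EpiLC. Shmt1, the cytosolic counterpart of Shmt2, fell by 0.42 in ESC, where 3.5% of all genes fell. Ass1, which makes the precursor of arginine, rose by 0.52 in EpiLC, where 4.74% of all genes rose. With the block 3 of these 11 rose and 2 fell in ESC, where 12% and 9.59% of all genes did. Ddit4, Sesn2 and Atf3 are also known to respond to p53. Of 11 tested p53 target genes 7 rose in ESC and 2 in EpiLC, where 5.58% and 4.74% of all genes rose. With the block 9 rose in ESC and 6 in EpiLC, where 12% and 11% of all genes rose. In ESC the largest rises were those of Pmaip1 (1.59), Plk2 (1.24) and Fas, which was detected on 0 of 5 ethanol arrays and rose at least 1.71-fold. Whether p53 has a part in the rise of Ddit4 or Atf3 was not tested.

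**Figure D4:**
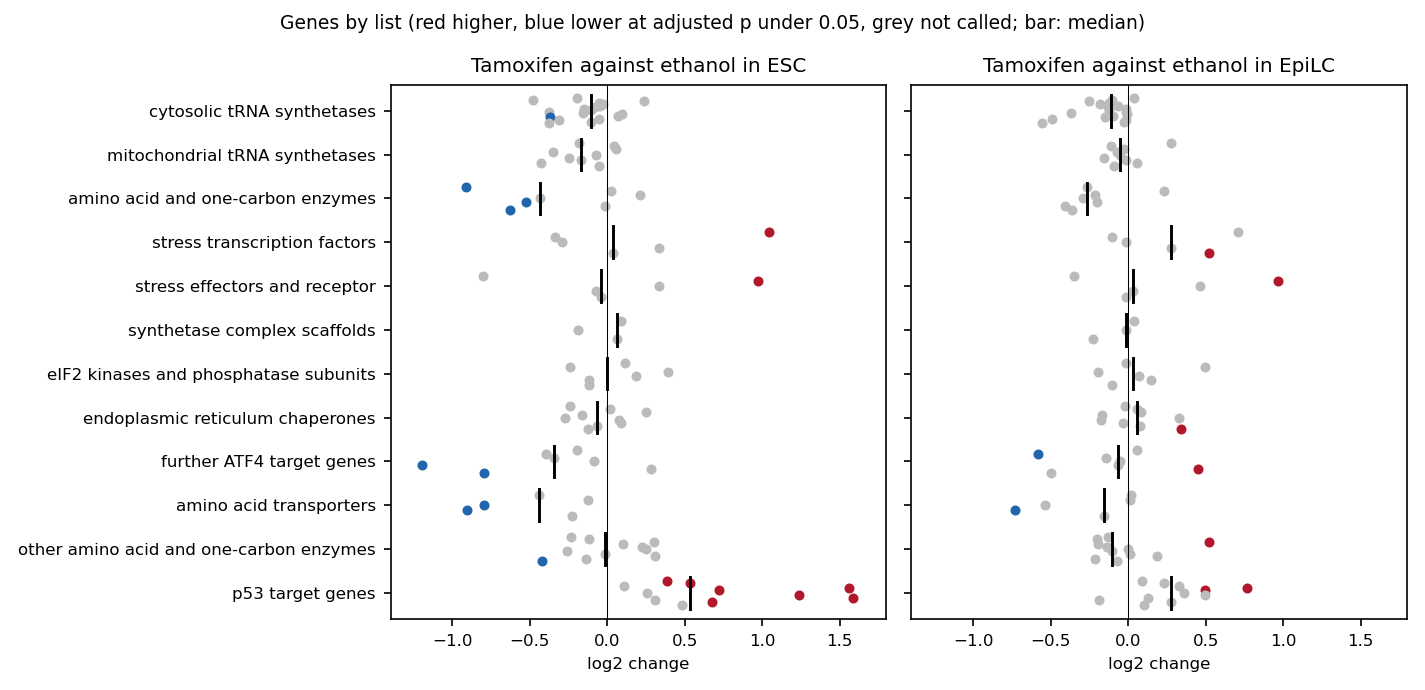
Log2 change with tamoxifen (x axis) of each tested gene by list in ESC (left) and EpiLC (right). Red and blue points were higher or lower at an adjusted p under 0.05, grey points were not called, and bars are list medians. In ESC the medians were -0.43 for amino acid and one-carbon enzymes, -0.44 for transporters and 0.53 for p53 target genes.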

How the data were processed

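Total RNA of 12 samples in 4 groups of 3 was read on 19 arrays. The deposited raw table gives the mean bead intensity of each probe, not normalized, and the deposited detection p-value for each probe, set against that array's negative controls. A table of intensity values that the authors normalized with limma (per the submitters' processing notes, version and method not given in the sources used here) was used as an alternative, with values under 1 set to 1. The genes and lists were chosen with earlier results of these data known. Groups came from the labels. There were 2 rounds of hybridization, and 7 samples went through both.

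The neqc function (limma 3.58.1, R 4.3.3) took background from the detection p-values, added an offset of 16, equalized quantiles across arrays and took log2. Each probe was then fitted on sample and round, which left 1 value per sample. Gene names came from the platform annotation, updated through RefSeq (23978 probes with 1 symbol, 1719 with none), and the probe with the highest mean stood for a gene. Probes detected at p under 0.01 on at least 3 arrays were kept (12529). lmFit and eBayes compared the groups in 5 contrasts, with Benjamini-Hochberg adjustment over 9422 genes, and the script was tested on simulated data. Where the lower group had no array with a detected signal, a bound is given: the higher group's mean over the lower group's, with each array of the latter raised to its lowest detected signal. The bound was taken before the fit on round and holds for this processing alone. It is a ratio of means without an error, and the higher group's mean takes in any array without a detected signal. The number of samples limits the precision, and nothing in the labels says that they are separate cultures, so the spread behind the p-values may be technical. An exact permutation test of 3 against 3 cannot go below 0.1.

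Pairing by sample number was judged by how far same-numbered samples deviated together from their group means. Between ethanol and tamoxifen the 3 correlations ran from 0.371 to 0.471 for ESC and from 0.497 to 0.567 for EpiLC, so the numbers pair these groups. Between the states the correlations were 0.060, 0.121 and 0.253 in ethanol and 0.129, 0.163 and 0.215 in tamoxifen. Samples of different number reached 0.082 in ethanol and 0.027 in tamoxifen. Pairing across the states was thus weak in both treatments, and these values do not set one treatment apart from the other. Named with values were genes called in a tamoxifen contrast or in the difference, the 12 largest called between the states, Atf3, Atf4, Atf5, Ddit3, Cebpb, Asns, Chac1 and Trib3 throughout, and at most 3 called genes of each other list per contrast. Other genes were named after their values were seen. Some sequences and genes are not reported here.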

Additional observations from a re-analysis of the deposited data

How the results depend on the processing

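The count of called genes was recomputed under other processing. With tamoxifen in ESC, where 6 genes were called, round 1 arrays alone gave 2, the 19 arrays with sample as a random block 11, array weights 11 and the replicate block 18, and leaving out single samples gave 2 to 7. It was 3 without ESC ethanol sample 1 or ESC tamoxifen sample 1, and 2 without ESC ethanol sample 3 or ESC tamoxifen sample 3. Aldh18a1 and Ddit4 were called under all 23 alternatives, Ddit4 in EpiLC under all 22. The call was lost under 9 of 23 for Atf3 (highest adjusted p = 0.129), 12 for Phgdh (0.143), 10 for Sars (0.292) and 4 for Shmt2 (0.0884). Single left-out samples ended the call of Sars (any of the 6 ESC samples, adjusted p = 0.0640 to 0.112), Atf3 (any ESC sample but ethanol 2, 0.0632 to 0.129), Shmt2 (ESC ethanol 1 or 3 or tamoxifen 3, 0.0505 to 0.0576) and Phgdh (ESC ethanol 2 or 3 or tamoxifen 1 or 3, 0.0735 to 0.143, and EpiLC ethanol 1 or tamoxifen 2 or 3, 0.0510 to 0.0552). In EpiLC, where 2 genes were called, equal medians gave 1, no round term 1 and the replicate block 13, and leaving out single samples gave 1 to 2, with 1 without EpiLC ethanol sample 1 or EpiLC tamoxifen sample 2. Ddit3 was lost under 7 of 22, among them without EpiLC ethanol 1 or 3 or tamoxifen 1 or 2. For the difference of the effects, with 0 called, the authors' table gave 1, detection on every array of a group 2, the random block 1 and the replicate block 2, and leaving out single samples 0. Between the states the counts stayed between 19 and 30 in ethanol and between 21 and 31 in tamoxifen. Of the 27 calls in ethanol 18 were kept with round 1 arrays alone, and of the 25 in tamoxifen 18 with equal medians. Among the genes that the naming rule picked, the calls lost under some alternatives were those of Atf4, Vldlr and Sars2 in ethanol and of Cars, Vldlr and Mthfd2 in tamoxifen. Of these, single left-out samples ended Atf4 (EpiLC ethanol 2 or 3, EpiLC tamoxifen 3, ESC ethanol 1 or 3, adjusted p up to 0.140), Vldlr in ethanol (samples 1 or 2 of EpiLC, 1 or 3 of ESC, up to 0.0930) and in tamoxifen (EpiLC 2, ESC 1 or 3, up to 0.0805) and Cars in tamoxifen (EpiLC 1 or 3, ESC 2 or 3, up to 0.121). Cars, EpiLC against ESC in ethanol, reversed to 0.24 where probes had to be detected on every array of a group, since the other probe was then taken, which was detected on 0 of 5 ESC ethanol arrays and gives no measured size. The deposited normalized table gave smaller differences for several genes: in ethanol Cth -1.12, Pars2 -0.40 and Sars2 -0.33, and in tamoxifen Vldlr 0.40. Between the states the block gave 28 calls in ethanol and 27 in tamoxifen, and among the genes that the naming rule picked it changed only the calls of Chac1 in ethanol (adjusted p = 0.00103) and Atf5 in tamoxifen (0.0396). Pairing of the states by number was weak in both treatments. Equal medians moved the median of all genes from -0.01 to -0.18 in the difference of the effects. Signal over background limited Atf3, Vldlr, Cars, Yars and Aars2, which were not detected on every array.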
